A study of Mus musculus with 48 samples.

Results

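βTC3 is a mouse insulinoma line, a culture of pancreatic beta cells transformed in a transgenic tumour. The question addressed here was which of its genes differ after 2 h of induced, constitutively active ALK7. ALK7-CA, constitutively active ALK7, was carried on the PB-33 plasmid and switched on with doxycycline (dox) at 2 µg/ml, and the control cells carried PB-33 alone and received the same dox for the same time. The 6 libraries of these 2 groups, 3 of ALK7-CA cells and 3 of vector cells, were taken by their labels out of 48 in the series. The labels do not give the activating change in the receptor, or whether either population was a clone or a pool. They put no ALK7-CA library at 0 h of dox. Other βTC3 libraries were used beside them, with 3 replicates in each group: ALK7-CA and vector cells after 24 h of dox, vector cells at 0 h, and, from batch 2, vector cells given activin B at 50 ng/ml for 24 h with their untreated controls. Neither of these batch 2 groups received dox. In AJ5257-1 (AJ below), the series' other PanNET (pancreatic neuroendocrine tumour) line, the same ALK7-CA and vector groups at 2 h were used.

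ALK7, encoded by Acvr1c, is a type I receptor of the TGF-β superfamily that binds activin B, among other ligands, together with a type II activin receptor. An active type I receptor of this branch phosphorylates SMAD2 and SMAD3, which join SMAD4 and enter the nucleus to change transcription. Among the first genes such a receptor switches on in many cells are its own inhibitors, Smad7, Skil, Pmepa1 and Ldlrad4.

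Total counts were 22.9 to 32.6 M in the ALK7-CA libraries and 24.5 to 29.6 M in the vector libraries. The labels say that cells were plated in triplicate wells and do not name separate cultures, which makes the p-values a measure of the scatter among these wells only. Replicate 3 stood apart from replicates 1 and 2 in both groups: Junb, an early AP-1 subunit, was at 17.5, 17.7 and 7.64 CPM (reads scaled to library size) in ALK7-CA replicates 1, 2 and 3 and at 15.5, 12.8 and 5.83 CPM in vector replicates 1, 2 and 3. Same-numbered libraries deviated together, with correlations of 0.452, 0.352 and 0.796 for replicates 1, 2 and 3. Replicates 1 and 2 were not told apart by this: ALK7-CA replicate 2 correlated with vector replicate 1 at 0.4525 and ALK7-CA replicate 1 with vector replicate 2 at 0.372, while every correlation of a replicate 3 with a replicate 1 or 2 was negative. A second fit that blocks on replicate is given for some results. Genes and lists described without it can also gain calls there. All 7 beta cell markers were detected, with a summed level of 20830 to 22670 CPM in ALK7-CA libraries and 19770 to 21300 CPM in vector libraries. Summed acinar, fibroblast, endothelial and immune markers were each at most 3.13 CPM in any ALK7-CA library and at most 2.67 CPM in any vector library, and duct markers summed to 15.2 to 16.0 CPM in ALK7-CA libraries and 16.3 to 18.6 CPM in vector libraries.

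After 2 h, 241 of 15801 tested genes (1.53%) differed between ALK7-CA and vector cells, 198 higher (1.25%) and 43 lower (0.272%), by edgeR's quasi-likelihood test with Benjamini-Hochberg adjustment at 0.05. The changes were small: the median riser rose 1.49-fold and the median faller fell 1.36-fold, and 40 genes rose and 2 fell by 2-fold or more. In all 241 the 3 ALK7-CA libraries lay on one side of the 3 vector libraries, which held for 15.8% of all tested genes, 8.51% with ALK7-CA above and 7.33% with it below. Of the 198 risers 195 were protein-coding and 3 were lincRNAs. The risers were expressed at a median of 11.1 CPM in vector cells and the fallers at 18.5 CPM, against 23.6 CPM for all tested genes.

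The number of genes and the share of falls among them depended on the fit. From the 6 libraries alone edgeR called 31 genes, all 31 higher and 0 lower, with 1407 at an unadjusted p under 0.05, so no fall described below passed there; DESeq2 on all 15 libraries called 282 up and 83 down. In the fit blocked on replicate 1136 genes passed (7.19%), 723 up (4.58%) and 413 down (2.61%), and all 241 were among them with the same direction, while the share of risers went down to 63.6%, against 82.2% without the block. Without replicate 3 of both groups 96 passed, 82 up and 14 down, of which 87 were among the 241. Leaving out ALK7-CA replicate 1, 2 or 3 gave 93, 123 and 208 genes, and leaving out vector replicate 1, 2 or 3 gave 158, 77 and 136. Of the 51 genes that passed and were chosen by the naming rule, 21 passed in all 6 of these fits: Bmf, Btg2, Ccnd2, Chrna4, Ddx3y, Dpysl3, Efna5, Eif2s3y, Fam210b, Galnt17, Igfbpl1, Jam2, Kdm5d, Myom1, Ntrk2, Pdyn, Prr5l, Slc1a2 and Smad7 among the risers, and Oas2 and Tff3 among the fallers.

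**Figure D1:**
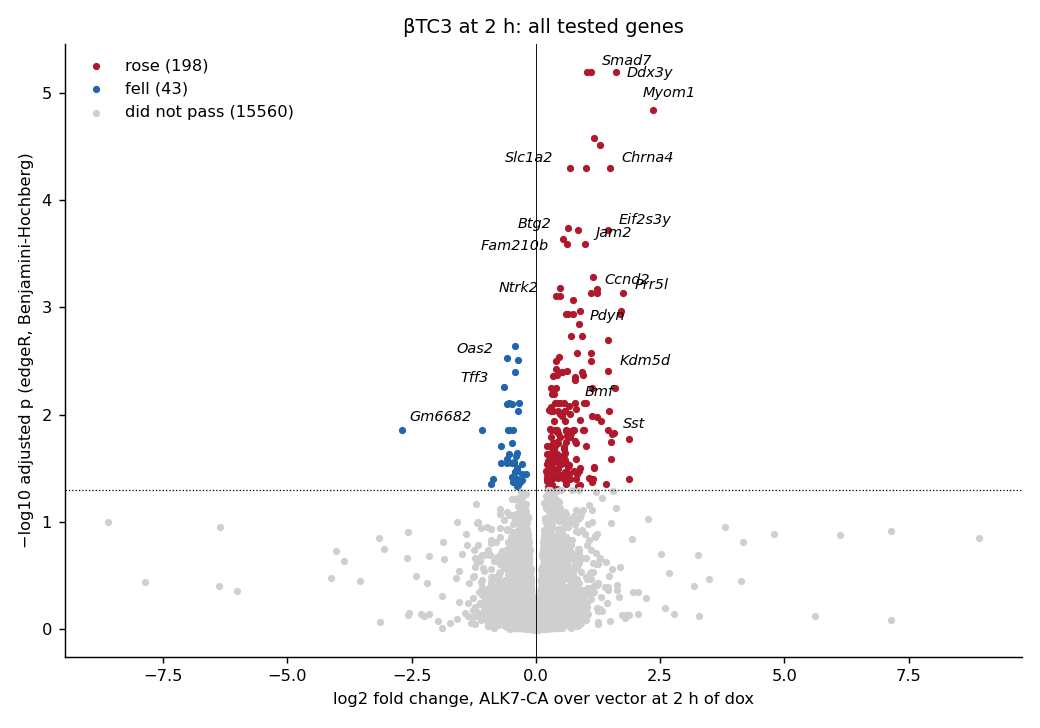
The log2 fold change of ALK7-CA over vector cells at 2 h (horizontal) and −log10 of the adjusted p (vertical) of each tested gene in βTC3; the dotted line marks an adjusted p of 0.05. The 198 genes that rose (red) outnumber the 43 that fell (blue), and the grey points far to either side did not pass.

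The receptor gene itself gives no check of the labels. Acvr1c was at 106, 113 and 132 CPM in ALK7-CA libraries and at 128, 119 and 143 CPM in vector libraries, so the groups overlapped and no excess of receptor reads appeared. Its log2 fold change was −0.15 (SE 0.114, adjusted p = 0.755), and over 16 alternatives the adjusted p ran from 0.0324 to 0.9999, the lowest being that of the block. Whether the transgene's transcript maps to the mouse gene's exons is not given in the sources used here. Of 14 tested receptors and ligands of the activin branch none passed, with a median log2 fold change of −0.02, beside −0.01 for all tested genes. With the block 3 fell, beside 2.61% of all tested genes. They were Acvr1c, Fkbp1a, which encodes a protein that holds type I receptors inactive, and Zfyve9, which encodes a SMAD anchor.

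The inhibitor genes Smad7, Skil, Ldlrad4 and Bambi rose. Of 32 tested SMAD2/3 feedback genes and targets 4 rose, beside 1.25% of all tested genes, and none fell, beside 0.272%. Their median log2 fold change was 0.11, beside −0.01 for all tested genes. With the block 8 rose and 1 fell, beside 4.58% and 2.61% of all tested genes. Smad7, which encodes the inhibitory SMAD that blocks type I receptors (chr18:75367529-75395935, GRCm38), was at 20.1, 19.7 and 20.1 CPM in ALK7-CA libraries and at 8.82, 9.84 and 8.93 CPM in vector libraries. The ALK7-CA libraries were nearly equal and every one stood far above every vector library, a log2 fold change of 1.12 (SE 0.0685, adjusted p = 6.32e-06). It was the only riser among the 8 SMAD genes. Smad7 passed under all 16 alternatives.

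Skil (chr3:31095058-31122577), which encodes SnoN, a co-repressor that binds SMADs, was at 77.1, 77.5 and 96.6 CPM in ALK7-CA libraries and at 51.3, 51.7 and 59.7 CPM in vector libraries. The groups did not overlap, replicate 3 was the highest in both, and the log2 fold change was 0.63 (SE 0.116, adjusted p = 0.0158). Ldlrad4, whose product keeps SMADs from the receptor, stood at 4.91 ± 0.5 CPM in ALK7-CA cells and 3.22 ± 0.239 CPM in vector cells (SD, n = 3 each; log2 fold change 0.61, edgeR adjusted p = 0.0141). Bambi, a pseudoreceptor without a kinase, stood at 58.4 ± 2.40 CPM in ALK7-CA cells and 47.5 ± 2.89 CPM in vector cells (SD, n = 3 each; log2 fold change 0.30, edgeR adjusted p = 0.0295). Skil and Ldlrad4 passed in 3 of the 6 fits that left out 1 library (adjusted p up to 0.0783 and 0.0912) and Bambi in none (0.0503 to 0.105).

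Pmepa1, another inhibitor that takes up SMADs, was at 26.1, 25.6 and 21.6 CPM in ALK7-CA libraries and at 18.7, 19.1 and 13.9 CPM in vector libraries. The groups did not overlap, replicate 3 was lowest in both, and the test did not pass (log2 fold change 0.51, adjusted p = 0.204). It passed with the block (adjusted p = 0.00163, lowest of a range up to 0.594 over the alternatives). Sox4, a SMAD target in many cells, had a log2 fold change of 0.23 that passed only with the block (adjusted p = 0.145 without it and 0.0169 with it). Several textbook targets did not pass in either of these fits: Tgif1 had a log2 fold change of 0.07, Klf10 of 0.04 and Smad6 of 0.37. Fst, which encodes follistatin, was below the count filter, with 0 to 2 reads in each of the 6 libraries. Of the BMP branch, Grem1, which encodes a secreted BMP antagonist, was at 12 ± 1.31 CPM in ALK7-CA cells and 7.14 ± 0.766 CPM in vector cells (SD, n = 3 each; edgeR adjusted p = 0.014). Id1, the classical BMP target, had a log2 fold change of 0.42 (adjusted p = 0.0843, and 0.000422 with the block, in a range of 0.000422 to 0.343).

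**Figure D2:**
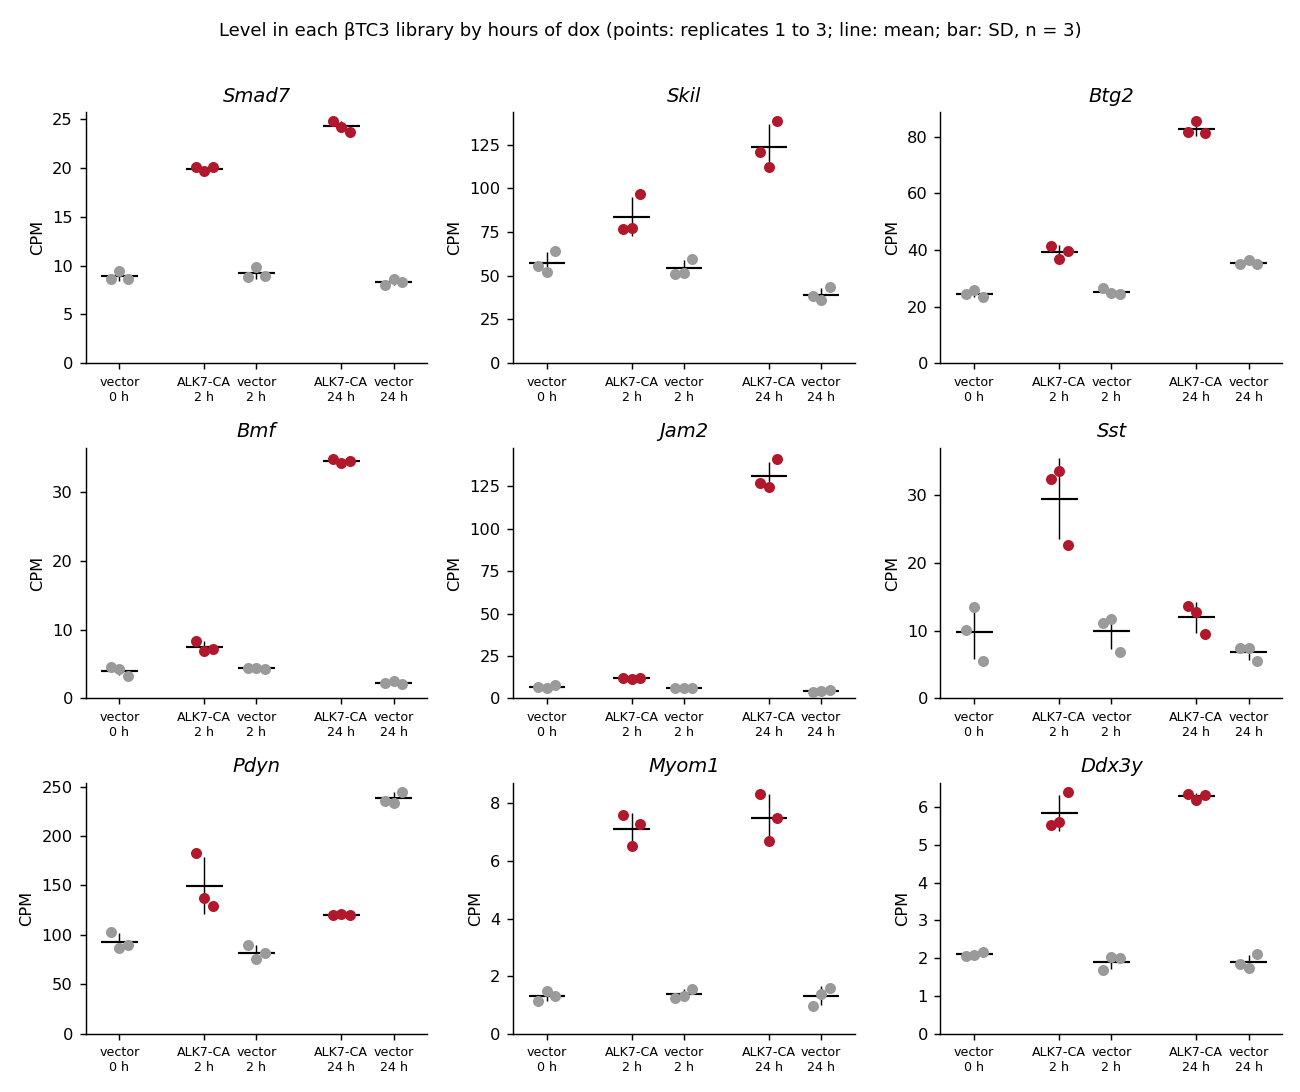
CPM of 9 genes in each βTC3 library (points, replicates 1 to 3 from left to right) by hours of dox, with ALK7-CA libraries in red, vector libraries in grey, lines at the mean and bars of 1 SD. Smad7, Skil and Btg2 were above vector at 2 h and 24 h, Bmf and Jam2 stood far higher in ALK7-CA cells at 24 h than at 2 h, Pdyn changed sides between the times, and Myom1 and Ddx3y had about the same gap at both.

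Btg2, an anti-proliferative gene induced early by many stimuli, was at 41.5, 36.8 and 39.5 CPM in ALK7-CA libraries and at 26.6, 24.7 and 24.3 CPM in vector libraries. Every ALK7-CA library stood well above every vector library, a log2 fold change of 0.64 (SE 0.0621, adjusted p = 0.000179). Immediate early genes as a list leaned upward: 31 of 38 had a log2 fold change above 0, beside 7672 of all 15801 tested genes. Their median was 0.23. With the block 11 rose, beside 4.58% of all tested genes. Without it 5 rose, beside 1.25% of all tested genes, and 1 fell, beside 0.272%. The other 4 risers were Dusp1, a MAP kinase phosphatase, Fosl2, an AP-1 subunit, Zfp36l2, an mRNA decay factor, and Ier5, with log2 fold changes of 0.43, 0.43, 0.26 and 0.32. Atf3, a stress-induced transcription factor, went the other way, at 12.7, 12.2 and 14.5 CPM in ALK7-CA libraries and 19.6, 17.7 and 17.5 CPM in vector libraries (log2 fold change −0.47, adjusted p = 0.0285). Atf3 passed in 1 of the 6 fits that left out 1 library (adjusted p up to 0.145). Fos, Junb and Myc did not pass, with log2 fold changes of 0.62, 0.33 and −0.09. Their spread between replicates was as large as the differences. For Junb that spread included the replicate 3 shift shared by the groups, and each ALK7-CA library was above the same-numbered vector library. With the block the edgeR adjusted p of Fos was 0.0611, against 0.338 without it.

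Among 24 tested pro-apoptotic genes, Bmf alone rose, beside 1.25% of all tested genes. With the block 3 rose and 1 fell, beside 4.58% and 2.61% of all tested genes. Bmf, which encodes a BH3-only protein that binds and blocks anti-apoptotic BCL2 proteins, was at 8.4, 6.91 and 7.21 CPM in ALK7-CA libraries and at 4.37, 4.45 and 4.23 CPM in vector libraries (log2 fold change 0.79, SE 0.119, adjusted p = 0.00477). The groups did not overlap and ALK7-CA replicate 1 was the highest. Bcl2l11, which encodes BIM of the same family, did not pass (log2 fold change 0.05, adjusted p = 0.861). Of 23 genes of the G1/S step 1 rose, beside 1.25% of all tested genes. It was Ccnd2, the cyclin D2 gene, with 13.1, 11.9 and 12.4 CPM in ALK7-CA libraries and 6.15, 4.56 and 6.1 CPM in vector libraries, with no overlap (log2 fold change 1.15, SE 0.127, adjusted p = 0.000516). The kinase inhibitor genes Cdkn1a and Cdkn2b, which TGF-β induces in epithelial cells, had log2 fold changes of −0.12 and −0.03 and did not pass. None of the 23 G2/M genes passed, and with the block 1 fell, beside 2.61% of all tested genes. The proliferation marker Mki67 had a log2 fold change of −0.09.

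Promoter windows of Btg2, Bmf and Sst are shown because these risers hold, close to the start, a motif that SMADs or cAMP-responsive factors are known to bind. The windows are RefSeq's, on the minus strand of GRCm38.p6, written 5′ to 3′ and ending at the base before the annotated start. Capitals mark TGTCTG, the reverse strand of the SMAD box CAGACA, in Bmf (chr2:118544588-118544837), and the cAMP response element TGACGTCA and the GC-rich SMAD motif GGCGCC in Btg2 (chr1:134079156-134079405) and Sst (chr16:23890845-23890944).
Bmf: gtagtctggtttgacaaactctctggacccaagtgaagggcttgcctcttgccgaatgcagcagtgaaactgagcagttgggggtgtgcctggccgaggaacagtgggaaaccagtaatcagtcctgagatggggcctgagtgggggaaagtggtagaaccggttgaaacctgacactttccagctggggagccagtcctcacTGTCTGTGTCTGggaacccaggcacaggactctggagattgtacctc
Btg2: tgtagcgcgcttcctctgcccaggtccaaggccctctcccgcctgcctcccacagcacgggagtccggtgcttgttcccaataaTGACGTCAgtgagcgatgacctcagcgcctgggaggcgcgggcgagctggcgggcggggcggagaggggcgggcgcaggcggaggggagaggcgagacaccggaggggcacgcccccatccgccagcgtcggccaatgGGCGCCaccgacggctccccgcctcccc
Sst: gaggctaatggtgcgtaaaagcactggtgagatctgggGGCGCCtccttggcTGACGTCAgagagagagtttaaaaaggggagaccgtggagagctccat

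Bmf held 2 adjacent copies of TGTCTG, beginning 47 and 41 bases before the start. In Btg2 the cAMP element began 166 bases and GGCGCC 28 bases before the start, and in Sst GGCGCC began 62 and the cAMP element 48 bases before it. Over the RefSeq promoter table, which runs from 250 bases before to 50 after each start, 151 of 198 risers, 29 of 43 fallers and 11164 of 15619 tested genes with a symbol had an entry. On either strand CAGACA was in 18% of the risers' promoters, 27.3% of the fallers' and 16.2% of all, and GGCGCC in 17.6%, 18.2% and 20.6%. TGACGTCA was in 3.43% of the risers' promoters, 3.03% of the fallers' and 3.03% of all, and the AP-1 motif TGACTCA in 2.58%, 9.09% and 3.6%. The palindromic SMAD element GTCTAGAC was in 0.429%, 0% and 0.244%. The risers' shares of the first 4 motifs lay close to those of all promoters, and the last was found in 1 riser's promoter.

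Peptide hormones moved in both directions while no gene of beta cell identity passed. Of 10 tested genes for islet hormones and endocrine peptides other than insulin, and for enzymes of serotonin synthesis, 3 rose and 1 fell. Of all tested genes 1.25% rose and 0.272% fell. With the block 4 of the 10 rose and 2 fell, beside 4.58% and 2.61% of all tested genes. Sst, which encodes somatostatin, the hormone of delta cells, was at 32.4, 33.5 and 22.6 CPM in ALK7-CA libraries and at 11.2, 11.7 and 6.9 CPM in vector libraries (log2 fold change 1.58, SE 0.289, adjusted p = 0.015). Replicate 3 was the lowest in both groups, and the groups did not overlap. Sst passed in 2 of the 6 fits that left out 1 library (adjusted p 0.0153 to 0.0844), and with the block the adjusted p was 1.76e-05, in a range of 5.71e-06 to 0.0844 over the alternatives. Tph1, the serotonin-synthesis enzyme gene, stood at 4.04 ± 0.529 CPM in ALK7-CA cells and 2.20 ± 0.185 CPM in vector cells (SD, n = 3 each; edgeR adjusted p = 0.0113). Gcg, the glucagon gene, was at 139, 108 and 114 CPM in ALK7-CA libraries and at 90.9, 89.3 and 90.2 CPM in vector libraries (log2 fold change 0.42, adjusted p = 0.014), with ALK7-CA replicate 1 the highest and no overlap. Gal, the galanin gene, fell, with 9.56, 9.99 and 10.9 CPM in ALK7-CA libraries and 15.5, 14.4 and 14.4 CPM in vector libraries (log2 fold change −0.54, adjusted p = 0.00774). In bulk RNA, more cells of a type and more RNA per cell cannot be told apart.

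Of 29 tested genes of beta cell identity and glucose sensing none passed, with a median log2 fold change of 0.02. Ins2 averaged 10089 ± 1152 CPM in ALK7-CA cells and 9332 ± 929 CPM in vector cells (SD, n = 3 each), a difference smaller than the spread between replicates. Ins1 and Pdx1 had log2 fold changes of 0.09 and 0.13 (adjusted p = 0.931 and 0.522). With the block 3 of the 29 rose and 2 fell (Foxa2, Glis3, Isl1, Pax6 and Rfx6 together), beside 4.58% and 2.61% of all tested genes. None of 21 secretory vesicle genes passed. With the block 4 of the 21 rose, Pcsk1, Scg3, Snap25 and Syt4, beside the same 4.58%.

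Pdyn and Ntrk2 were named for the difference between the times. Pdyn, which encodes the opioid precursor prodynorphin, was at 183, 137 and 129 CPM in ALK7-CA libraries and at 89.6, 75.3 and 81.6 CPM in vector libraries after 2 h (log2 fold change 0.86, SE 0.111, adjusted p = 0.00141), higher in every ALK7-CA library. Ntrk2, the BDNF receptor gene, was at 192, 180 and 173 CPM in ALK7-CA libraries and at 139, 134 and 138 CPM in vector libraries (log2 fold change 0.41, adjusted p = 0.000777). Both were lower in ALK7-CA than in vector cells at 24 h.

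The largest rises were in genes at low levels. Myom1, which encodes a protein of the muscle M-band, was at 7.59, 6.52 and 7.27 CPM in ALK7-CA libraries and at 1.25, 1.31 and 1.57 CPM in vector libraries, the largest log2 fold change of a gene the naming rule took (2.37, SE 0.172, adjusted p = 1.42e-05). It was the only riser of 10 tested myogenic and sarcomere genes. After it came Tenm1, a teneurin, Prr5l, a partner of the mTORC2 complex, Efna5, the ephrin-A5 ligand, Igfbpl1, Ddx3y, Galnt17, Sst, Fut9 and Chrna4, an acetylcholine receptor subunit, with log2 fold changes of 1.87, 1.76, 1.72, 1.70, 1.61, 1.59, 1.58, 1.51 and 1.49. Prr5l was at 1.49, 2 and 2.26 CPM in ALK7-CA libraries and at 0.445, 0.598 and 0.633 CPM in vector libraries. Tenm1 rested on a mean of 26 reads per ALK7-CA library and 6.33 per vector library, and it passed in 2 of the 6 fits that left out 1 library (adjusted p 0.0154 to 0.216). Fut9 passed in 1 of the 6 (0.0344 to 0.114). With vector cells at 0 h as the control the log2 fold change was 0.99 for Tenm1 and 0.77 for Galnt17, which no longer passed (adjusted p = 0.377 and 0.185), and 1.06 for Efna5, which did (0.0245). Of 23 ephrin and axon guidance genes, Efna5 and Robo1 rose and Sema6a fell, beside 1.25% and 0.272% of all tested genes. With the block 4 rose and 2 fell, beside 4.58% and 2.61%.

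All 4 Y-linked genes tested were higher in ALK7-CA cells by 1.3 to 1.61 on the log2 scale. Ddx3y, a Y-linked RNA helicase gene, was at 5.52, 5.6 and 6.4 CPM in ALK7-CA libraries and at 1.7, 2.02 and 2 CPM in vector libraries (log2 fold change 1.61, SE 0.107, adjusted p = 6.32e-06). Eif2s3y, Kdm5d and Uty had log2 fold changes of 1.45, 1.46 and 1.3. Xist did not pass and lay between 0.565 and 0.849 CPM in every one of the 6 libraries. At 24 h the log2 fold changes were 1.72, 1.28, 1.53 and 1.42 for Ddx3y, Eif2s3y, Kdm5d and Uty, and with activin B, where both groups carried the same plasmid, none passed (−0.05, 0.19, 0.20 and −0.18). In AJ cells at 2 h the 3 that were tested, Eif2s3y, Kdm5d and Uty, rose with ALK7-CA too, by 0.73, 0.91 and 0.72 on the log2 scale. With no ALK7-CA library at 0 h, a difference that arose within 2 h of dox and one that the populations already had cannot be told apart, for these genes or for any other in the comparison.

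Interferon-stimulated genes leaned downward. Of 32 tested 4 fell, beside 0.272% of all tested genes, and none rose. A log2 fold change above 0 was seen in 2, beside 7672 of all 15801 tested genes, and the median was −0.22. With the block 9 fell, beside 2.61% of all tested genes. Oas2, an antiviral RNA sensor, was at 6.36, 6.65 and 6.61 CPM in ALK7-CA libraries and at 9.55, 9.69 and 10.1 CPM in vector libraries, with no overlap (log2 fold change −0.58, SE 0.0814, adjusted p = 0.00299). Ddx58, which encodes the sensor RIG-I, averaged 22.5 ± 0.939 CPM in ALK7-CA cells and 28.9 ± 0.554 CPM in vector cells (SD, n = 3 each; edgeR adjusted p = 0.00932), and Isg15 and Oasl2 had log2 fold changes of −0.49 and −0.32. Oas2 passed in all 6 fits that left out 1 library, Ddx58 in 4 and Isg15 in 1.

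The largest falls were again in weakly expressed genes and small in size. Irf4, an immune transcription factor, had a log2 fold change of −0.90, Mc4r, the melanocortin 4 receptor, of −0.87, and Tex101, the lysosomal protease gene Ctsh and Tff3, a trefoil peptide gene, of −0.69, −0.69 and −0.65. Ret, the GDNF family receptor kinase, Oas2, the linker histone gene Hist1h1d, Lgals2 and Homer2 followed, between −0.58 and −0.56. Irf4, Mc4r, Tex101 and Hist1h1d passed in none of the 6 fits that left out 1 library, Ret in 1, Ctsh in 2, Homer2 in 3, Lgals2 in 5, and Oas2 and Tff3 in all 6. Tff3 was at 7.37, 7.78 and 8.45 CPM in ALK7-CA libraries and 13, 12.5 and 11.7 CPM in vector libraries, and did not pass with vector cells at 0 h as the control (log2 fold change −0.39, adjusted p = 0.104). The 2 genes that fell by 2-fold or more were 2210409E12Rik and the processed pseudogene Gm6682, both outside the naming rule and singled out after their values were seen. Gm6682 was at 0.937, 0.652 and 0.966 CPM in ALK7-CA libraries and at 9.55, 5.57 and 1.83 CPM in vector libraries, beside a mean of 0.745 CPM in vector cells at 0 h, so its difference lay in the vector libraries at 2 h.

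In the ER chaperone and histone lists few genes passed, and more did with the replicate block. Of 20 ER chaperone genes only P4hb rose (1092 ± 65.6 CPM in ALK7-CA cells and 935 ± 16.2 CPM in vector cells, SD, n = 3 each), beside 1.25% of all tested genes. P4hb passed in 2 of the 6 fits that left out 1 library (edgeR adjusted p 0.0311 to 0.187). Of the 20, 19 had a log2 fold change above 0, beside 7672 of all 15801 tested genes, with a median of 0.14. With the block 10 rose, beside 4.58% of all tested genes. Hspa5, which encodes the chaperone BiP, averaged 1217 ± 48.7 CPM in ALK7-CA cells and 1046 ± 49.8 CPM in vector cells (SD, n = 3 each; edgeR adjusted p = 0.116, and 0.00728 with the block). None of the 19 genes of the integrated stress response passed, and with the block 1 fell, beside 2.61% of all tested genes. Of 8 replication-dependent histone genes, read here in polyA libraries, 1 fell, beside 0.272% of all tested genes. All 8 had log2 fold changes below 0, where 7672 of all 15801 tested genes had one above 0. The median was −0.47, and with the block 4 fell, beside 2.61% of all tested genes. In the p53 list Btg2 rose and Plk2 fell among 17, and in the mesenchymal transition list Krt18, a keratin gene, fell among 16. Of all tested genes 1.25% rose and 0.272% fell. None passed among 20 cholesterol synthesis, 19 glycolysis and hypoxia or 11 anti-apoptotic genes. With the block 1 rose and 2 fell in the p53 list and 1 rose and 2 fell in the mesenchymal transition list. There 1 cholesterol synthesis gene rose and 3 fell, 2 glycolysis and hypoxia genes rose and 1 fell, and 1 anti-apoptotic gene rose. The shares of all tested genes with the block were 4.58% and 2.61%.

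**Figure D3:**
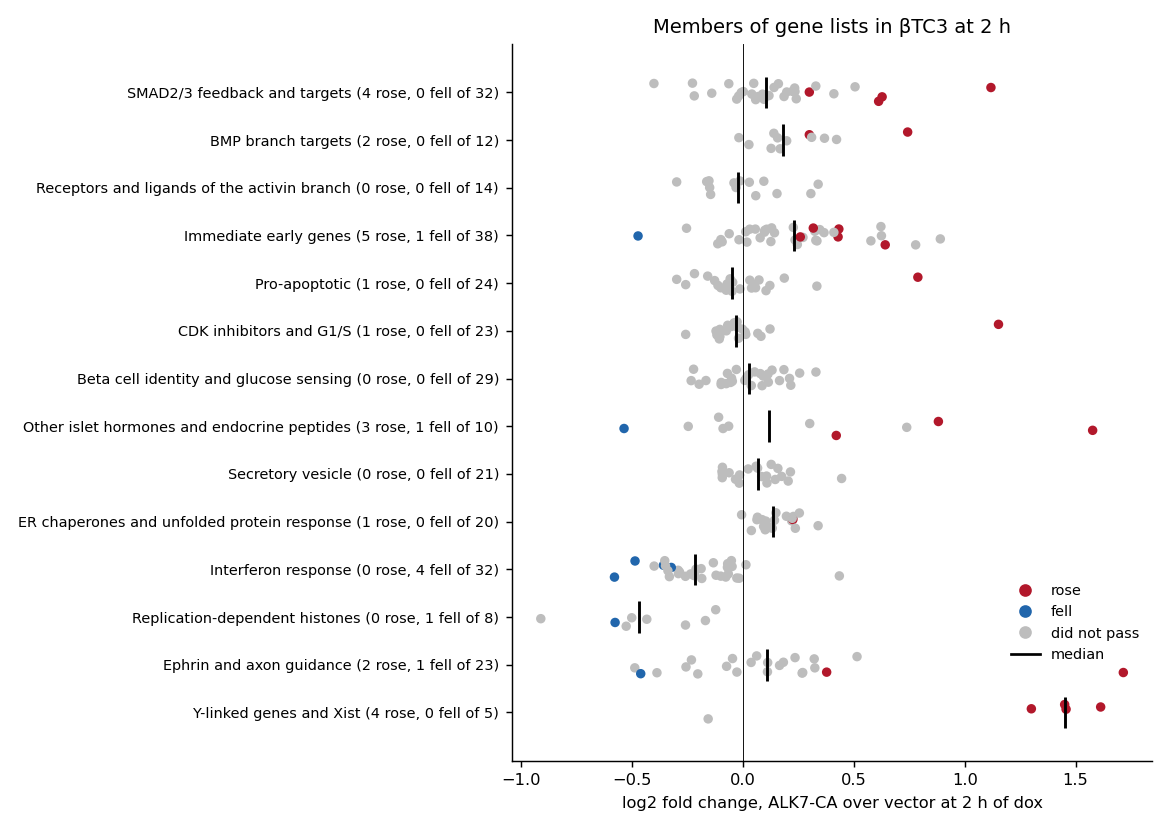
The log2 fold change of ALK7-CA over vector cells at 2 h for each tested member of 14 gene lists, red where it rose, blue where it fell and grey where it did not pass, with the median as a black line. SMAD2/3 feedback and immediate early genes lie mostly above 0, interferon and histone genes mostly below, and 4 of the 5 genes in the bottom row near 1.5. Of all 15801 tested genes, not drawn here, 7672 had a value above 0.

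At 24 h 2134 genes passed (13.5%), 1268 up (8.02%) and 866 down (5.48%), in libraries separate from those at 2 h. Of the 198 early risers 123 rose at 24 h (62.1% of the early list and 9.7% of the later one), and of the 43 early fallers 30 fell (69.8% and 3.46%). Of the early risers 12 fell at 24 h and 63 did not pass, and of the early fallers 1 rose and 12 did not pass. The difference between the effects at the 2 times, tested as an interaction, passed for 924 genes (5.85%), and it separated the early risers into 3 sets. In 54 the rise was larger at 24 h, in 42 it was smaller or turned round, and in 102 no difference was called. Of the 42, 12 passed as lower than vector at 24 h, 2 passed as higher and 28 did not pass. The effect at 2 h is part of that interaction, so the sets are a description.

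Activin B libraries, which took no part in defining these sets, were of batch 2 and had no dox. Their calls differed between the sets. Of 14429 genes tested with activin B for 24 h, 22.2% passed, of which 1771 rose (12.3%) and 1439 fell (9.97%). Of the 54 genes with a larger rise at 24 h, 52 rose with activin B and none fell. Of the 42 whose rise shrank or turned round, none rose and 34 fell. Of the 102 with no called difference between the times, 27 rose, 5 fell, 64 did not pass and 6 were not tested. The median log2 fold changes of the 3 sets were 0.57, 0.45 and 0.63 at 2 h, 1.67, −0.15 and 0.59 at 24 h, and 1.32, −0.48 and 0.04 with activin B.

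Jam2, a junctional adhesion molecule gene, belonged to the growing set, with 12, 11.4 and 12.3 CPM in ALK7-CA libraries and 6.23, 5.87 and 6 CPM in vector libraries at 2 h (log2 fold change 0.98, adjusted p = 0.000255). At 24 h it was at 131 ± 8.71 CPM in ALK7-CA cells and 4.41 ± 0.594 CPM in vector cells (SD, n = 3 each). Fam210b, a mitochondrial protein gene, had log2 fold changes of 0.55 at 2 h, 3.70 at 24 h and 3.36 with activin B. For Bmf the 3 values were 0.79, 3.92 and 3.28, for Dpysl3, which encodes a neuronal cytoskeleton protein, 0.36, 2.13 and 1.74, and for Slc1a2, a glutamate transporter gene, 0.69, 2.40 and 1.74. Smad7, at 1.12, 1.54 and 2.12, and Skil, at 0.63, 1.66 and 1.83, were in the same set.

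Pdyn led the set that turned round. At 24 h it was at 120, 121 and 120 CPM in ALK7-CA libraries and at 236, 233 and 245 CPM in vector libraries, a log2 fold change of −0.98 after the rise of 0.86 at 2 h, and with activin B it was −2.07. Vector cells themselves held more Pdyn at 24 h than the 82.2 ± 7.18 CPM (SD, n = 3) they had at 2 h. Ntrk2 had log2 fold changes of 0.41, −0.35 and −1.17, Gcg of 0.42, −0.52 and −1.81, and Astn1, an astrotactin gene, of 0.29, −0.52 and −1.02 at 2 h, at 24 h and with activin B. Ccnd2 rose at 2 h, had a log2 fold change of −0.13 at 24 h that did not pass, and fell by 1.62 on the log2 scale with activin B. Of the 20 ER chaperone genes 1 rose at 2 h, P4hb, beside 1.25% of all tested genes, so the other members lie outside these sets. At 24 h 11 of the 20 fell, beside 5.48% of all tested genes. With activin B 18 fell, beside 9.97% of the genes tested there. The third set held genes such as Myom1 and Ddx3y, at 2.37 and 1.61 at 2 h, 2.52 and 1.72 at 24 h, and −0.09 and −0.05 with activin B, where neither passed.

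**Figure D4:**
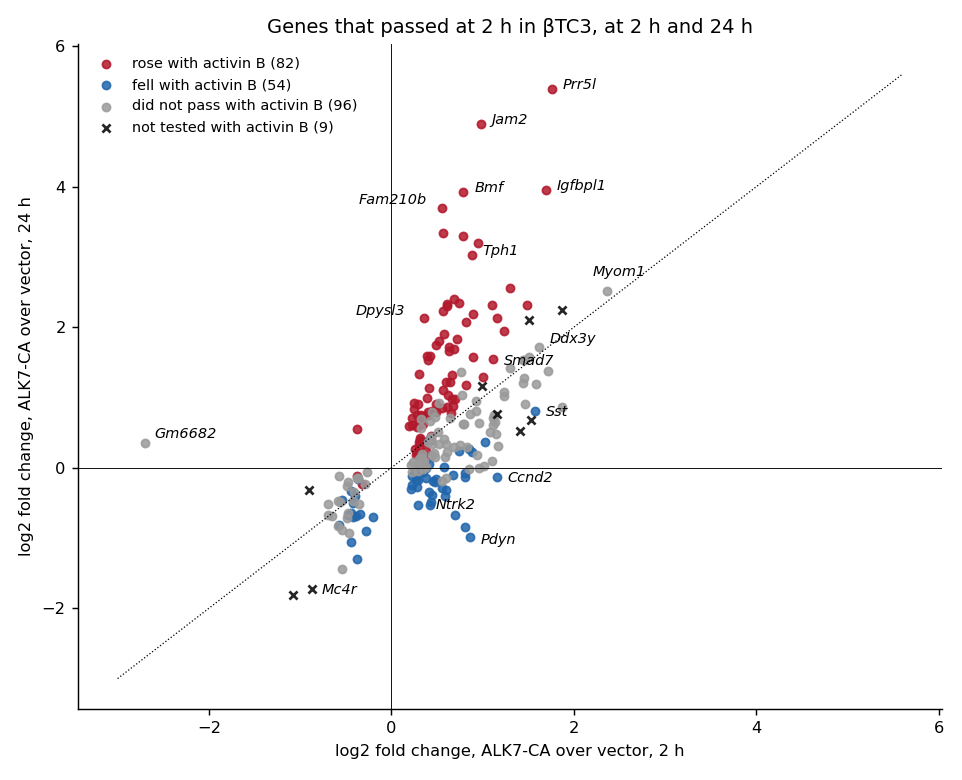
The log2 fold change of ALK7-CA over vector cells at 2 h (horizontal) and at 24 h (vertical) of the 241 genes that passed at 2 h, coloured by their call with activin B; the dotted line marks equal effects. Genes that rose with activin B (red) lie mostly above the line, those that fell (blue) mostly below it, and Myom1 and Ddx3y lie near it in grey.

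In AJ cells 2443 of 15487 tested genes (15.8%) differed between ALK7-CA and vector cells at 2 h, 8.24% up and 7.54% down. The series holds no ALK7-CA library at 0 h for AJ either. Differences that arose within 2 h and those already present cannot be told apart in AJ cells. Of the βTC3 risers 180 were tested there and 61 rose (33.9% of them and 5.24% of the AJ risers), while 21 fell and 98 did not pass. Of 32 tested fallers 15 fell, 4 rose and 13 did not pass. The effect differed between the lines for 82 of the 180 risers, 73 of them higher in βTC3, and for 15 of the 32 fallers, while the interaction passed for 5.79% of all genes, 3.4% higher and 2.39% lower in βTC3. The effect at 2 h in βTC3 chose these genes and is part of that interaction, so their counts are a description and are not read against the share of all genes. Smad7 rose by 1.12 on the log2 scale in βTC3 and by 2.40 in AJ (adjusted p of the difference 9.31e-05), and Skil by 0.63 and 1.4 (0.0104). Myom1, at 2.37 in βTC3 and −0.23 in AJ, and Efna5, at 1.72 and 0.24, differed the other way (adjusted p of the difference 5.25e-05 and 0.00058), and Btg2 and Bmf, at 0.64 and 0.79 in βTC3 and 0.94 and 0.59 in AJ, had no called difference.

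With dox alone 1 gene passed between vector cells at 2 h and 0 h (0.00633%). Since vector cells at 2 h are the controls of the ALK7-CA comparison, the level at 0 h was set beside it. It lay between the means of the 2 groups at 2 h for 149 of the 198 risers and 33 of the 43 fallers. It reached the ALK7-CA mean for none of the risers and 1 of the fallers. Both groups at 2 h helped to choose these genes, and the same ALK7-CA libraries stand against either control. The counts at 0 h are therefore a description and no separate check. With vector cells at 0 h as the control in place of those at 2 h, 154 genes passed, 125 up and 29 down, of which 126 were among the 241. Of the genes chosen by the naming rule 1 more passed with that control and 19 no longer did: Astn1, Fosl2, Galnt17, Ldlrad4, P4hb, Robo1 and Tenm1 among the risers and Atf3, Ctsh, Gal, Hist1h1d, Irf4, Isg15, Krt18, Lgals2, Lhfpl2, Plk2, Tex101 and Tff3 among the fallers.

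The early risers were long genes. Their median genomic span was 94.1 kb, with 49.0% over 100 kb, against 21.2 kb and 16.3% for the fallers and 20.3 kb and 12.7% for all tested genes. Over 6 groups of tested genes ordered by span, the median log2 fold change of ALK7-CA over vector at 2 h was −0.04 in the shortest and 0.06 in the longest. For vector cells at 2 h over 0 h it was 0.06 in the shortest and −0.05 in the longest, and for ALK7-CA at 2 h over vector at 0 h it was 0.02 and 0.01. With the vector 0 h control the risers' median span was 51.8 kb, with 34.4% over 100 kb. For ALK7-CA over vector it climbed with span in other libraries too, at −0.05 in the shortest and 0.03 in the longest group at 24 h, and at −0.03 and 0.06 in AJ cells at 2 h. The 3 comparisons at 2 h in βTC3 share libraries, and the part of span in the risers was not tested.

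**Figure D5:**
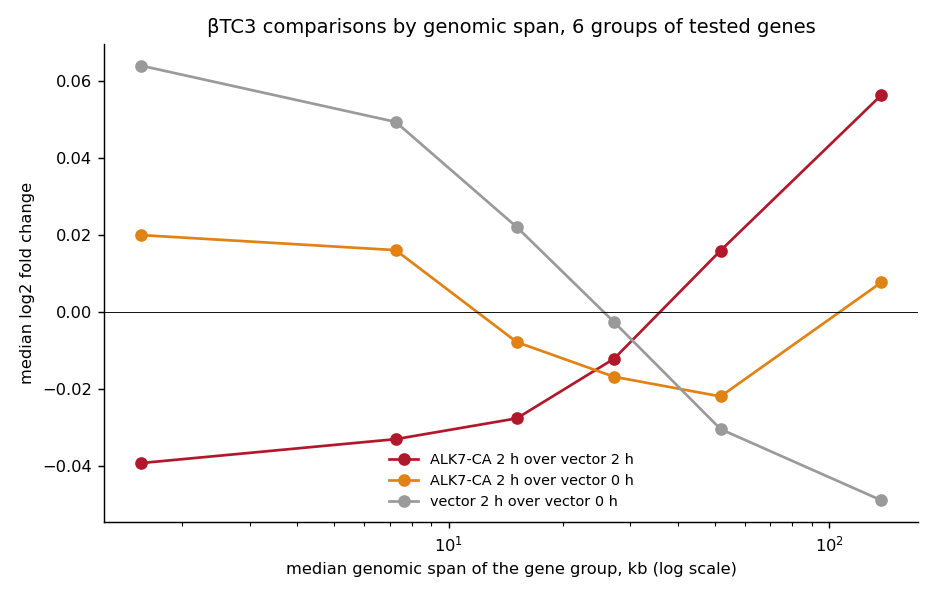
The median log2 fold change (vertical) of 6 groups of tested genes by their median genomic span in kb (horizontal, log scale), for 3 comparisons that share libraries. The value climbs with span for ALK7-CA over vector at 2 h (−0.04 to 0.06), declines for vector cells at 2 h over 0 h (0.06 to −0.05), and shows no steady trend for ALK7-CA at 2 h over vector at 0 h (0.02 to 0.01).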

How the data were processed

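Per the labels' protocols, RNA was extracted with Trizol and stranded polyA libraries were made with the TruSeq stranded mRNA kit from 500 ng of total RNA. The submitters' processing notes name bcl2fastq 2.17, cutadapt 1.4.2, HISAT2, featureCounts 1.4.4, edgeR and mm10. The sources used here do not give the strand setting. The authors deposited counts of reads, as whole numbers, for 39017 Ensembl genes, and the series' count table equalled the per-sample tables in 48 of 48 columns. The 37 mitochondrially encoded genes had 0 reads in every library. The deposited table of normalized values was not used here.

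GENCODE M21 gave 37693 symbols. The 15 βTC3 libraries of batch 1 were fitted together in edgeR 4.0.16 (R 4.3.3) with filterByExpr (minimum count 10, minimum total 15, minimum proportion 0.7), TMM scaling and the quasi-likelihood F test, two-sided, Benjamini-Hochberg adjusted over all tested genes at 0.05. AJ batch 1, the 12 libraries at 2 h of both lines, and βTC3 batch 2 had fits of their own. SE is the log2 fold change over the square root of F, and CPM use TMM-scaled library sizes, so levels are not corrected for gene length. With changes added to simulated counts, the 2 h fit found 65.7% of 67 genes changed 1.5-fold. It found 92.4% of 66 changed 2-fold and 98.5% of 67 changed 4-fold, with 11 false calls over 15503 tested genes. The changed genes were drawn from those above a minimum level in vector cells. The shift of replicate 3 was not simulated, so these shares may not hold for the real libraries.

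Same-numbered ALK7-CA and vector libraries were read as paired, since their residuals over 9006 genes with a mean log2 CPM over 4 correlated at 0.452, 0.352 and 0.796; ALK7-CA replicate 1 also correlated with vector replicate 2 (0.372), and ALK7-CA replicate 2 more with vector replicate 1 (0.4525) than with its own number. The genes, lists (24, with 487 genes) and alternatives were chosen with earlier results of these data known. Genes named were the 10 largest rises and 10 largest falls with a mean of at least 20 reads in the higher group and a symbol other than a clone's, the 3 members at most of any list with the smallest p, 5 in each direction by the difference between times, and 25 set names, Acvr1c among them. Some genes, the gene called with dox alone among them, are not reported here. Hspa5, Xist and list members named to complete a count of 5 or fewer were chosen after their values were seen. A list is described by its counts and median, with no test. Alternatives were the block, DESeq2 1.42.0, RLE scaling, other filters, the 6 libraries alone, other controls and leaving out libraries.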

Additional observations from a re-analysis of the deposited data

Results flagged for a closer look

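Of the 241 genes that passed at 2 h, 105 had an effect of ALK7-CA that differed between 2 h and 24 h by edgeR's interaction test with adjusted p under 0.05. Among the genes named in the report, the effect at 2 h was below that at 24 h, with differences of log2 fold changes of −3.91 for Jam2, −3.63 for Prr5l, −3.14 for Fam210b, −3.13 for Bmf, −2.87 for Pmepa1, −2.26 for Igfbpl1 and −2.14 for Tph1. Smaller differences of this sign were −1.92 for Sox4, −1.77 for Dpysl3, −1.71 for Slc1a2, −1.69 for Ldlrad4, −1.61 for Grem1, −1.16 for Tgif1, −1.04 for Bambi and −1.03 for Skil. The smallest were −0.82 for Chrna4, −0.58 for Btg2, −0.43 for Smad7 and −0.36 for Cdkn1a. The effect at 2 h was above that at 24 h by 1.85 for Pdyn, 1.28 for Ccnd2, 1.17 for Id1, 0.94 for Gcg, 0.82 for Astn1, 0.76 for Ntrk2, 0.52 for Robo1, 0.51 for Lhfpl2, 0.47 for P4hb, 0.47 for Sema6a and 0.38 for Pdx1. Of these, Pmepa1, Sox4, Tgif1, Cdkn1a, Id1 and Pdx1 did not pass at 2 h themselves.

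The 2 h effect differed between βTC3 and AJ, by the same test over the libraries of both lines, for 97 of the 212 genes called in βTC3 that were tested in both. The log2 fold change in βTC3 exceeded that in AJ by 3.18 for Jam2, 2.59 for Myom1, 1.96 for Galnt17, 1.94 for Lgals2, 1.69 for Sst, 1.52 for Slc1a2, 1.47 for Efna5, 1.07 for Tff3, 0.96 for Acvr1c and 0.71 for Eif2s3y. It was below that in AJ, with differences of −1.95 for Smad6, −1.37 for Sox4, −1.30 for Smad7, −1.18 for Ret, −0.88 for Pmepa1, −0.84 for Ldlrad4, −0.83 for Hist1h1d and −0.78 for Skil. The remaining ones were −0.67 for Klf10, −0.56 for Sema6a, −0.52 for Bcl2l11, −0.47 for Robo1, −0.40 for Dpysl3 and −0.35 for Cdkn1a. Of these, Acvr1c, Smad6, Sox4, Pmepa1, Klf10, Bcl2l11 and Cdkn1a did not pass at 2 h in βTC3.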

How the results depend on the processing

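Numbers of genes moved with the fit. The 241 genes of the 2 h comparison became 1136 with the replicate block, 365 with DESeq2, 150 with no filter on low counts, 31 (0 of them lower) from the 6 libraries alone and 524 from these with the block, 154 with vector cells at 0 h as the control, 77 to 208 without 1 library, and 96 without replicate 3 of both groups, a setting chosen after seeing the data. RLE scaling, a stricter filter and both vector groups as controls gave 245, 264 and 339. With the block 24 h gave 4410 genes in place of 2134, the difference between times 2553 in place of 924, AJ at 2 h 3895 in place of 2443, and the difference between lines 1885 in place of 941. Without 1 library these ran from 1619 to 1866, 641 to 806, 1726 to 2518 and 670 to 1022. Dox alone called 1 gene, 4 with DESeq2, 1 to 3 without 1 library, and with edgeR on only the groups compared 0, where 227 genes had an unadjusted p under 0.05. Over 1086 refits of the 68 tested named genes, 845 kept direction and call, 224 lost the call, 9 gained it, 8 changed sign without being called, and 0 reversed. The 12 that passed in every one of the alternatives were Btg2, Ccnd2, Chrna4, Ddx3y, Efna5, Eif2s3y, Fam210b, Jam2, Kdm5d, Myom1, Slc1a2 and Smad7. The cause of these shifts was not tested. In simulated counts 1.5-fold changes were found in part, so a gene that did not pass is not shown to be unchanged.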
